A study of Mus musculus with 6 samples.

Results

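The TGF-beta and BMP pathway genes were taken by symbol, as every gene named Tgfb or Tgfbr, Bmp, Bmpr, Gdf, Acvr, Inhb or Smad with the number and letter of a family member, which gave 46 of 22086 genes. Of these, 33 could be tested. In Cx43KO astrocyte polysomes none of the 33 passed the test for a difference from Cx43FL, which 1 of all 13545 tested genes passed. The receptor Bmpr2, the co-receptor Tgfbr3, the ligand Gdf10, the protease Bmp1 and the inhibitory Smad6 nevertheless had all their Cx43KO libraries above their Cx43FL libraries, with log2 fold changes between 0.83 and 1.93, as had 8.08% of all tested genes. By their means per kb of transcript, the 5 most abundant members in both genotypes were the BMP receptors Bmpr1a and Bmpr1b, Smad1 and Smad5 of the BMP arm, and Smad4, which all arms share. This did not hold in every Cx43KO library. In Cx43KO replicate 1, members such as Smad3 and Tgfb2 lay above Bmpr1b, and in replicate 3 Tgfb2 lay above Smad5 and Smad4.

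TGF-beta, activin and BMP ligands are secreted dimers that bring together type II and type I receptor serine kinases. The type I receptors of the BMP arm act through Smad1, Smad5 and Smad9, those of the TGF-beta and activin arm through Smad2 and Smad3, and both sets of Smads bind Smad4 to reach their target genes, whereas Smad6 and Smad7 dampen the signal. In the brain, BMPs promote the making of astrocytes from neural progenitors, and TGF-beta is known as a regulator of astrocyte reactivity and of microglia.

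The study compared Cx43KO mice, deleted for the gap junction protein Connexin 43 (Cx43) by a Cre recombinase under the GFAP promoter (strain Aldh1L1-RPL10aGFP with Gfap Cre and Cx43 fl/fl), with floxed Cx43FL mice (Aldh1L1-RPL10aGFP with Cx43 fl/fl), labelled as littermates. All mice were 6 weeks old, and in both genotypes the Aldh1l1 promoter drove a ribosomal protein L10a tagged with GFP, so that polysomal mRNAs of astrocytes could be recovered from the hippocampus by translating ribosome affinity purification (TRAP). There were 3 libraries per genotype. P-values measure the spread between these libraries, since the labels do not tie a library to an animal.

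Counts on genes ranged from 14787303 to 34733473 per library. Levels are counts per M (CPM), taken over the tested genes of a library and scaled by TMM, and 3 counts correspond to between 0.0864 and 0.203 per M before that scaling, which covers counting error only. Gja1, the gene of Cx43, had 1396, 1382 and 1264 counts in Cx43FL and 1405, 2449 and 3079 in Cx43KO replicates 1 to 3, so that the deletion was not visible in these transcript totals. These counts are not scaled for depth, and are no sign of a rise. Counts on genes were 14787303 to 15391214 in Cx43FL and 16056347, 23965596 and 34733473 in Cx43KO replicates 1 to 3. The summed markers of astrocytes were 20963 to 24439 CPM in Cx43FL, 20672 and 30066 CPM in Cx43KO replicates 2 and 3, but 11495 CPM in Cx43KO replicate 1. The neuron markers summed to 2133 to 2845 CPM in Cx43FL and to 7643, 3030 and 4328 CPM in Cx43KO replicates 1 to 3. Every Cx43KO library was thus above Cx43FL in this sum, as in 4 of the 12 neuron markers taken singly. Cx43KO replicate 1 was highest in it, and also in oligodendrocyte markers (2736 CPM, against 1113 and 642 CPM in Cx43KO replicates 2 and 3). Cx43FL replicate 2 stood apart in another way: its summed markers of the choroid plexus epithelium were 473 CPM, against 10042 and 15482 CPM in Cx43FL replicates 1 and 3 and 22498 to 33197 CPM in Cx43KO. None of the 10 choroid plexus markers was at 0 in every library of a genotype, and 8 had all Cx43KO libraries above the Cx43FL libraries. Values with a library left out, often 1 of these, are given beside the largest differences.

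Of the 46 genes, 33 had enough counts to be tested, 7 had counts below the filter, and Bmp10, Bmp15, Bmp8a, Gdf2, Gdf3 and Inhbc were at 0 in all 6 libraries. Bmp8a and Bmp8b are close paralogs and reads mapping more than once were removed, so that the counts of both are uncertain. Per kb of transcript, the highest levels in Cx43FL were those of the type I receptor Bmpr1a (46.2 ± 5.98 CPM per kb, SD, n = 3 libraries), Smad1 (31.6 ± 1.94), Smad5 (21.4 ± 0.461), Smad4 (19.8 ± 4.09) and the type I receptor Bmpr1b (17.5 ± 2.5). Tgfb2 was the first ligand in this order, with 8.96 ± 4.51 CPM per kb. It was followed by Smad9, Smad2, Smad3, the type II receptor Acvr2a, Bmp7, Gdf11 and Bmpr2, at 7.22 to 4.39 CPM per kb, and the order closed with Bmp1 at 0.429 ± 0.163 CPM per kb. Neighbours in this order overlapped between Cx43FL libraries, except Bmpr1a and Smad1, Smad1 and Smad5, and Bmpr1b and Tgfb2.

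**Figure D1:**
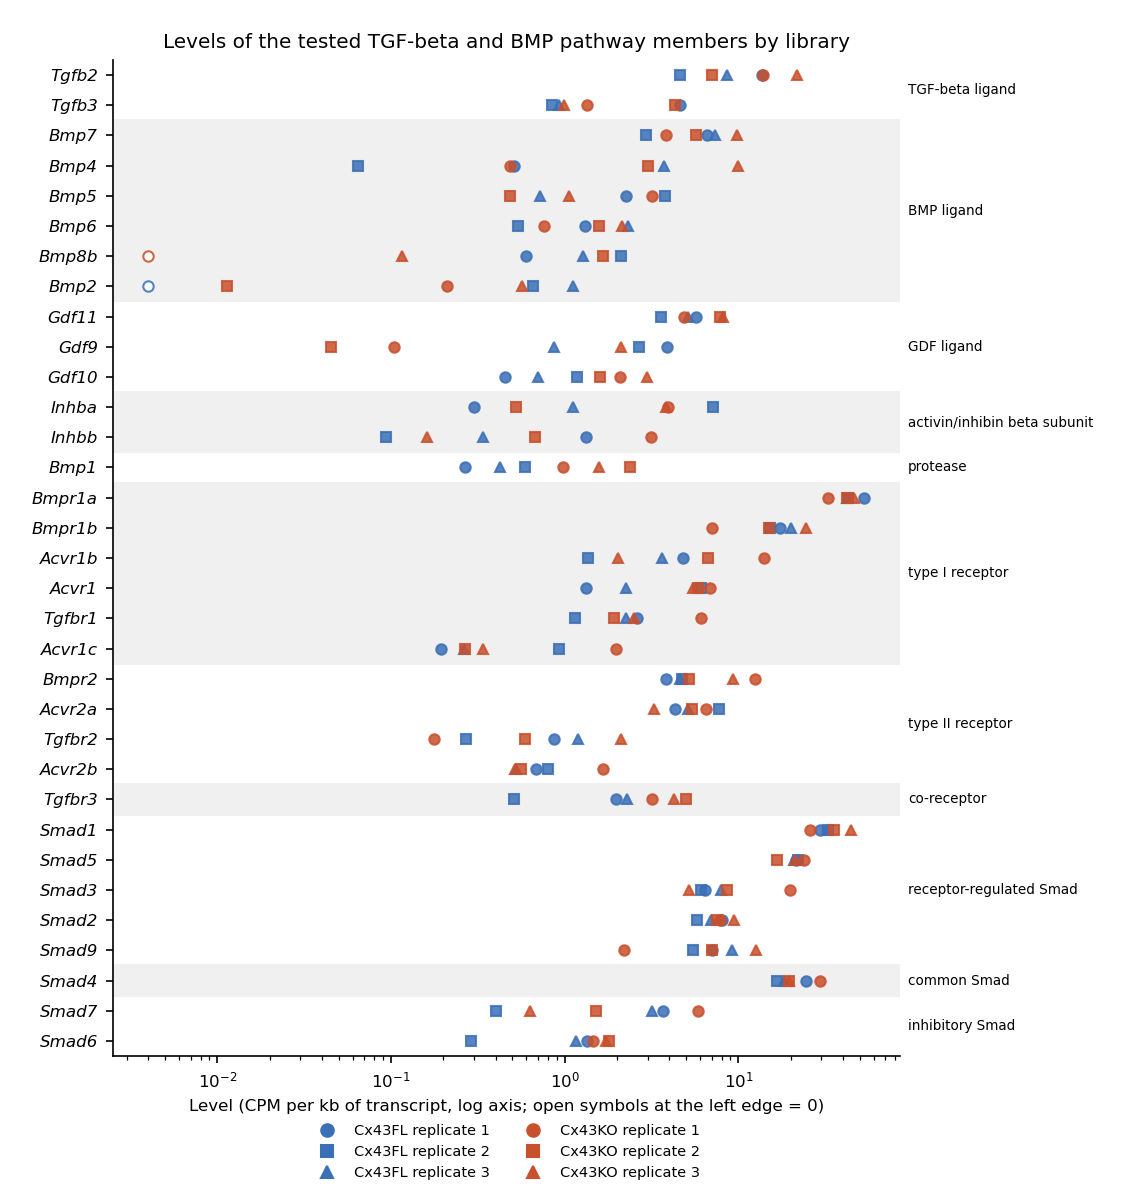
Level of each tested member in each library, in CPM per kb of transcript on a log axis, with members grouped by role and symbols marking genotype and replicate. Bmpr1a, Smad1, Smad5, Smad4 and Bmpr1b have the highest means, though not the highest values in every Cx43KO library. The libraries of the genotypes lie apart in Bmpr2, Tgfbr3, Gdf10, Bmp1 and Smad6 only.

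The weight of the BMP arm could be read within each library, in a comparison chosen after the counts had been seen. The type I receptors Bmpr1a, Bmpr1b and Acvr1 summed to 71.7, 64.3 and 64.8 CPM per kb in Cx43FL replicates 1 to 3, and to 46.8, 63.1 and 76.4 CPM per kb in Cx43KO. Those of the TGF-beta and activin arm, Tgfbr1, Acvr1b and Acvr1c, summed to 7.62, 3.43 and 6.17 CPM per kb in Cx43FL and to 22, 8.86 and 4.87 CPM per kb in Cx43KO. The BMP arm thus exceeded the other arm in each of the 6 libraries, by ratios of 9.41, 18.7 and 10.5 in Cx43FL and 2.12, 7.12 and 15.7 in Cx43KO. The ratios of the genotypes overlapped (p = 0.4 in an exact 2-sided permutation test on the log2 ratio, in which 3 against 3 libraries cannot go below 0.1). The lowest ratio was that of Cx43KO replicate 1, the library highest in summed neuron, oligodendrocyte and choroid plexus markers and lowest in astrocyte markers. The part of these cells in this ratio was not tested.

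Among the receptor-regulated Smads, Smad1, Smad5 and Smad9 together exceeded Smad2 and Smad3 by 3.98, 5.09 and 4.18 times in Cx43FL and by 1.88, 3.69 and 5.39 times in Cx43KO replicates 1 to 3. These ratios also overlapped (p = 0.5 in the exact permutation test), with Cx43KO replicate 1 again the lowest.

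**Figure D2:**
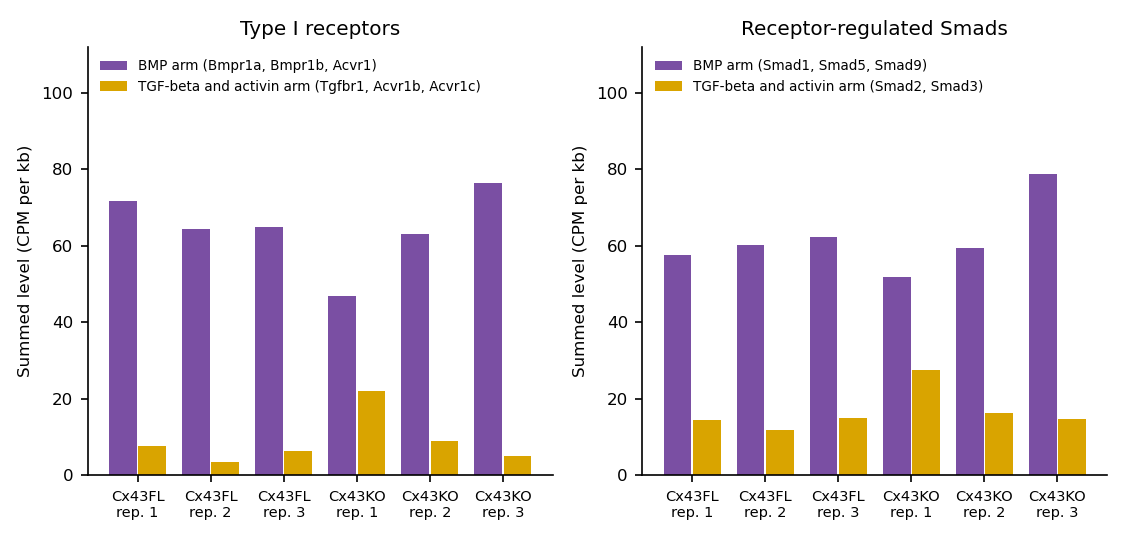
Summed level of the BMP arm and of the TGF-beta and activin arm in each library, in CPM per kb, for type I receptors on the left and receptor-regulated Smads on the right. The BMP arm is the taller bar in every library, and the arms come closest in Cx43KO replicate 1, with ratios of 2.12 and 1.88.

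Between genotypes, a call needed both a quasi-likelihood p from edgeR below 0.05 after Benjamini-Hochberg adjustment and more than 50 normalized counts on average in the higher genotype. Errors of log2 fold changes are standard errors (SE). By this rule 0 of the 33 tested members and 1 of 13545 genes (0.00738%) were called. The lowest adjusted p among the members was 0.54 with edgeR and 0.233 with DESeq2 and its prior, which called 0 members and 0.834% of all genes. At an unadjusted p below 0.05, edgeR had 2 members higher in Cx43KO and 0 lower, against 5.66% and 2.67% of all genes. Of the tested members, 5 had libraries that did not overlap, all higher in Cx43KO, against 8.08% of all genes higher and 7.45% lower in every Cx43KO library. The log2 fold changes were above 0 for 24 members and below 0 for 9, against 7365 above and 6180 below of all tested genes. The median of the members was 0.25 against 0.07 over all genes, and their values ran from -1.69 for Gdf9 to 1.93 for Bmp1.

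**Figure D3:**
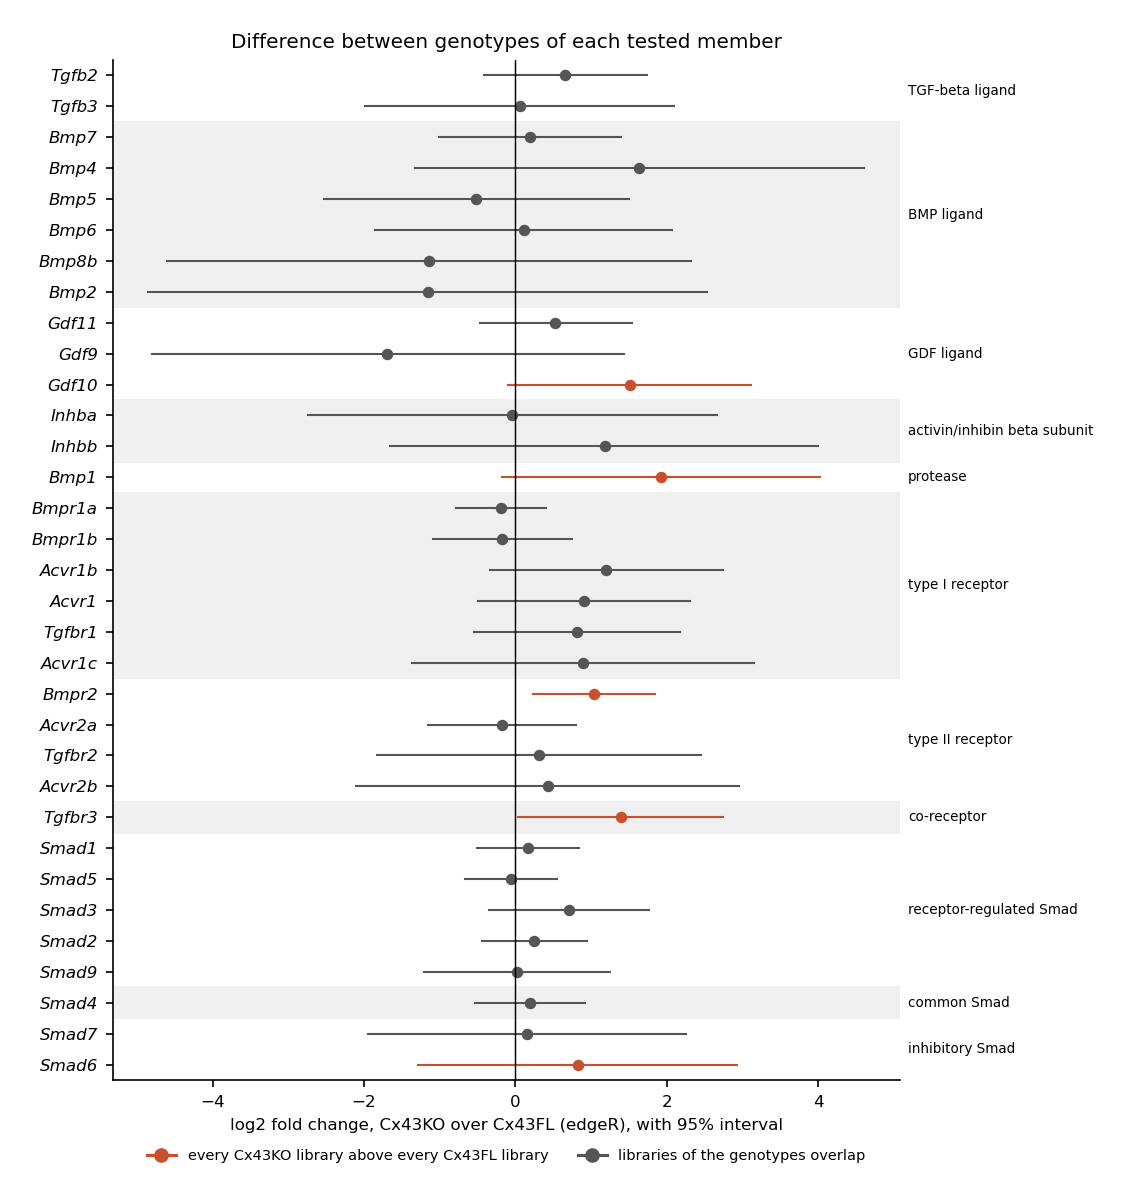
log2 fold change of Cx43KO over Cx43FL for each tested member, with its 95% interval from edgeR, by role, with coloured symbols for the 5 members whose libraries did not overlap. The intervals of Bmpr2 and Tgfbr3 lie above 0, all others include 0, and the intervals widen towards the members with few counts such as Bmp2 and Bmp8b.

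Among the TGF-beta ligands, Tgfb2 had 69.8, 23.7 and 44.1 CPM in Cx43FL and 70.6, 36.3 and 111 CPM in Cx43KO replicates 1 to 3. The genotypes overlapped, with the lowest value in Cx43FL replicate 2, and the log2 fold change of 0.66 (SE 0.49, edgeR adjusted p = 0.693) was 0.33 without that library and 0.22 without Cx43KO replicate 3. Tgfb3 ranged between 2.85 and 15.5 CPM in Cx43FL and between 3.37 and 14.5 CPM in Cx43KO. Tgfb1, which in the brain is made chiefly by microglia, was below the filter with 0, 0 and 9 counts in Cx43FL against 51, 13 and 25 in Cx43KO. It was singled out after its values had been seen and was not tested. These libraries differ in depth, and in CPM the genotypes overlapped, Cx43FL replicate 3 (0.586 CPM) lying above Cx43KO replicate 2 (0.522 CPM), with 0, 0 and 0.586 CPM against 3.17, 0.522 and 0.772 CPM. The summed microglia markers were 31.3 to 56.5 CPM in Cx43FL against 101 to 209 CPM in Cx43KO (6 of 14 markers higher in every Cx43KO library, none at 0 in every library of a genotype). The part of microglia in the Tgfb1 counts was not tested. In polysomal RNA of a tissue, more cells of a type and more RNA per cell cannot be told apart.

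Of the 10 BMP ligands, 6 were tested and the genotypes overlapped in all of these. Bmp7, the most abundant, had 24.3, 10.8 and 27 CPM in Cx43FL and 14, 20.9 and 35.9 CPM in Cx43KO. Its log2 fold change of 0.19 (SE 0.54) became -0.13 without Cx43FL replicate 2 and -0.25 without Cx43KO replicate 3. Bmp4, which drives progenitors towards astrocytes, had 16, 2 and 118 counts in Cx43FL against 16, 154 and 665 in Cx43KO, or 1.05, 0.133 and 7.69 CPM against 0.993, 6.19 and 20.5 CPM. Libraries of the same genotype thus lay far apart, and the log2 fold change of 1.64 (SE 1.35, edgeR adjusted p = 0.724) ran from 0.28 without Cx43KO replicate 3 to 3.95 without Cx43FL replicate 3. Its 2 counts in Cx43FL replicate 2 fell in the library with the lowest sum of choroid plexus markers (473 CPM). Cx43KO replicate 1 had the highest sum of these markers (33197 CPM) and 16 counts of Bmp4.

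The lowest log2 fold changes were those of ligands with low levels. Bmp2 had 0, 2.32 and 3.97 CPM in Cx43FL and 0.745, 0.0402 and 2.01 CPM in Cx43KO (log2 fold change -1.16, SE 1.67). Bmp8b had 0.79, 2.79 and 1.69 CPM in Cx43FL and 0, 2.21 and 0.154 CPM in Cx43KO (-1.14, SE 1.57), and 10% of its exonic bases overlap another gene. With 1 library left out, Bmp2 ran from -2.43 (without Cx43KO replicate 3) to -0.31 (without Cx43FL replicate 3), and Bmp8b from -4.27 (without Cx43KO replicate 2) to -0.58 (without Cx43KO replicate 1). Bmp5 had 8.63, 14.5 and 2.74 CPM in Cx43FL and 12.2, 1.85 and 4.04 CPM in Cx43KO (-0.52, SE 0.91). In all of these the genotypes overlapped and the error was larger than the difference. For Bmp5, 49.1% of the exonic bases overlap the gene Gm26903 on the other strand, so that its counts are uncertain, and without Cx43FL replicate 2 the log2 fold change was 0.06. Bmp3, below the filter and likewise named after its values had been seen, had 26, 8 and 197 counts in Cx43FL against 4, 0 and 0 in Cx43KO, or 1.71, 0.531 and 12.8 CPM against 0.248, 0 and 0 CPM, so that its libraries also lay apart, with the Cx43KO libraries lower. It was not tested.

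Of the 9 Gdf ligands, 3 were tested. Gdf10, a ligand also known as BMP3B, lies at chr14:33923587-33937983 of GRCm38 on the plus strand. It had 2.37, 6.17 and 3.65 CPM in Cx43FL and 10.9, 8.28 and 15.5 CPM in Cx43KO replicates 1 to 3. No library of the genotypes overlapped (p = 0.1 in the exact permutation test, the lowest it can give). Every member without overlap gives this p, so that here and below it only restates the separation. The means were 4.06 ± 1.93 and 11.5 ± 3.66 CPM (SD, n = 3 libraries each), a log2 fold change of 1.51 (SE 0.73), which did not pass the test (edgeR adjusted p = 0.602). The value ran from 1.22 to 1.92 with each library left out, the highest value being that without Cx43FL replicate 2, the library low in choroid plexus markers.

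Gdf11, the most abundant Gdf ligand, had 23.1, 14.5 and 20.8 CPM in Cx43FL and 19.7, 31.7 and 33 CPM in Cx43KO, with overlapping libraries and a log2 fold change of 0.53 (SE 0.46). Gdf9, known from the oocyte, had 6.92, 4.78 and 1.56 CPM in Cx43FL and 0.186, 0.0804 and 3.8 CPM in Cx43KO. Cx43KO replicate 3 lay within the Cx43FL values, and the log2 fold change of -1.69 (SE 1.41) was -5.01 without it. The other Gdf ligands had at most 7 counts in any library.

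Promoters of members whose libraries did not overlap are shown with their Smad sites. RefSeq gave a promoter of 300 bases (250 before and 50 after the start, GRCm38.p6) for 33 of the 46 genes, and none for Bmp1 and Tgfbr3. The 200 bases upstream of the start follow for Gdf10, at chr14:33923387-33923586 on the plus strand, and Smad6, at chr9:64022060-64022259 on the minus strand, 5′ to 3′, with the Smad box CAGAC in capitals. The bases upstream of the RefSeq start of Bmpr2 are transcribed in GENCODE and are not shown.
Gdf10: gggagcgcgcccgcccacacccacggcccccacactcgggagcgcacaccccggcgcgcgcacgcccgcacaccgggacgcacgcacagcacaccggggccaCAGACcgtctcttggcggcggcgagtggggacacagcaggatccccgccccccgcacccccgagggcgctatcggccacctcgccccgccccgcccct
Smad6: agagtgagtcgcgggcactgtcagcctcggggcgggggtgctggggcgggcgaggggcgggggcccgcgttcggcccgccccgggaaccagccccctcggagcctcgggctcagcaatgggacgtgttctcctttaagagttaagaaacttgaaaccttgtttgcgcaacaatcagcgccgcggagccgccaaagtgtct
Gdf10 held CAGAC once in these bases, and Smad6 neither CAGAC nor GGCGCC, a GC-rich site bound by Smad1 and Smad5, on either strand. Over the 300 bases, Gdf10 also held GGCGCC once, outside the bases shown, and Bmpr2 held GGCGCC once. Of the 33 promoters, 13 held CAGAC and 7 held GGCGCC, read on both strands over the 300 bases, against 49.6% and 11.9% of 32851 promoters. A match only describes the letters of this window.

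The activin subunit Inhba had 0.461, 10.9 and 1.69 CPM in Cx43FL and 6.02, 0.804 and 5.87 CPM in Cx43KO. The highest value was that of Cx43FL replicate 2, and the log2 fold change of -0.04 (SE 1.23) became 1.95 without that library and 0.45 without Cx43KO replicate 2. Inhbb ranged between 0.398 and 5.6 CPM in Cx43FL and between 0.679 and 13.3 CPM in Cx43KO. For neither subunit did the difference exceed the spread between libraries of the same genotype.

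Bmp1 is a metalloprotease that cleaves procollagens and the BMP antagonist chordin, and not a ligand despite its name. It lies at chr14:70474558-70520234 on the minus strand. It had 0.988, 2.19 and 1.56 CPM in Cx43FL and 3.6, 8.72 and 5.84 CPM in Cx43KO replicates 1 to 3. The genotypes were thus apart (p = 0.1 in the exact permutation test). The means of 1.58 ± 0.601 and 6.05 ± 2.57 CPM gave a log2 fold change of 1.93 (SE 0.95, edgeR adjusted p = 0.603), which ran from 1.58 to 2.23 with each library left out. It was 2.19 without Cx43KO replicate 1 and 2.23 without Cx43FL replicate 2.

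Among the type I receptors, the BMP receptor Bmpr1a had 316, 256 and 252 CPM in Cx43FL and 196, 251 and 277 CPM in Cx43KO, and thus overlapped. Its log2 fold change was -0.19 (SE 0.27), with a 95% interval from -0.79 to 0.41. Bmpr1b had 92.5, 81.1 and 108 CPM in Cx43FL and 37.9, 80.4 and 131 CPM in Cx43KO, the lowest value being that of Cx43KO replicate 1 in both receptors. The activin receptor Acvr1b had 21.3, 6.04 and 16.1 CPM in Cx43FL and 61.7, 29.4 and 8.98 CPM in Cx43KO, where replicate 3 lay within the Cx43FL values. Its log2 fold change of 1.20 (SE 0.70, edgeR adjusted p = 0.633) was 0.41 without Cx43KO replicate 1 and 0.82 without Cx43FL replicate 2. Cx43KO replicate 1 was the library with the highest sums of neuron, oligodendrocyte and choroid plexus markers. Tgfbr1, Acvr1 and Acvr1c also overlapped, with log2 fold changes of 0.81, 0.91 and 0.89 and SE of 0.62, 0.64 and 1.03.

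The type II receptor Bmpr2, which binds BMPs and activates the BMP type I receptors, lies at chr1:59763400-59879014 on the plus strand. It had 49.3, 61.4 and 59.3 CPM in Cx43FL and 162, 67.4 and 121 CPM in Cx43KO replicates 1 to 3. Every Cx43KO library was above every Cx43FL library, although Cx43KO replicate 2 only just so (p = 0.1 in the exact permutation test). The means of 56.7 ± 6.47 and 117 ± 47.3 CPM (SD, n = 3 libraries each) gave a log2 fold change of 1.04 (SE 0.36, 95% interval 0.24 to 1.84). The unadjusted p was 0.0154 and the adjusted p was 0.54 from edgeR, the lowest among the members. Bmpr2 was highest in Cx43KO replicate 1, as were the summed neuron, oligodendrocyte and choroid plexus markers, whose part in the difference was not tested. Without this library the log2 fold change was 0.72, and without Cx43FL replicate 2 it was 1.09.

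The other type II receptors did not stand out in this way. Acvr2a ranged between 24.6 and 43.8 CPM in Cx43FL and between 18.5 and 37.1 CPM in Cx43KO, Tgfbr2 from 2.19 to 9.7 CPM and from 1.43 to 17.2 CPM, and Acvr2b from 0.912 to 1.39 CPM and from 0.895 to 2.86 CPM. Their log2 fold changes were -0.18, 0.31 and 0.43, each smaller than its standard error.

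Tgfbr3, or betaglycan, presents TGF-beta2 to its receptors and lies at chr5:107106570-107289629 on the minus strand. It had 12, 3.12 and 13.8 CPM in Cx43FL and 19.3, 30.2 and 26.1 CPM in Cx43KO replicates 1 to 3. All Cx43KO libraries lay above the Cx43FL libraries (p = 0.1 in the exact permutation test), and Cx43FL replicate 2 was far below the others. The means of 9.64 ± 5.72 and 25.2 ± 5.51 CPM gave a log2 fold change of 1.39 (SE 0.62, 95% interval 0.03 to 2.75, edgeR unadjusted p = 0.0464 and adjusted p = 0.592). Without Cx43FL replicate 2 it was 0.95, and without Cx43KO replicate 1 it was 1.54. The choroid plexus markers moved with Tgfbr3 in Cx43FL replicate 2 and between genotypes, but not within Cx43KO. There the marker sums were 33197, 26462 and 22498 CPM in replicates 1 to 3, and Tgfbr3 was lowest in replicate 1. The part of these markers in the difference was not tested. Of the exonic bases of Tgfbr3, 4.88% overlap Gm43422.

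Smad1, Smad4 and Smad5 were counted well and had SE of 0.30, 0.33 and 0.28. Smad1 had 91, 102 and 100 CPM in Cx43FL and 80.6, 111 and 139 CPM in Cx43KO, and Smad4 had 82.7, 56.5 and 61.8 CPM in Cx43FL and 99, 66 and 65.9 CPM in Cx43KO. The log2 fold changes of 0.17 (95% interval -0.50 to 0.84) and 0.20 (-0.53 to 0.92) changed sign with 1 library left out, to -0.03 in both, for Smad1 without Cx43KO replicate 3 and for Smad4 without Cx43KO replicate 1. Smad5 varied between 138 and 144 CPM in Cx43FL and between 110 and 156 CPM in Cx43KO (-0.06, 95% interval -0.67 to 0.55). The intervals of Smad1, Smad4 and Smad5 leave out a change by 1 on the log2 scale in either direction. Smad2 and Smad9 had log2 fold changes of 0.25 and 0.02. Smad3 had 32.8, 30.9 and 40.5 CPM in Cx43FL and 100, 43.6 and 26.4 CPM in Cx43KO, a log2 fold change of 0.71 (SE 0.48) with overlapping libraries and the highest value in Cx43KO replicate 1.

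Of the inhibitory Smads, which are themselves targets of the pathway, Smad6 had 4.02, 0.862 and 3.45 CPM in Cx43FL and 4.35, 5.3 and 5.13 CPM in Cx43KO replicates 1 to 3. It lies at chr9:63953076-64022059 on the minus strand. Every Cx43KO library was above every Cx43FL library, but Cx43KO replicate 1 and Cx43FL replicate 1 differed little. The means of 2.78 ± 1.68 and 4.93 ± 0.51 CPM gave a log2 fold change of 0.83 (SE 0.96, edgeR adjusted p = 0.808), and 0.39 without Cx43FL replicate 2. Smad7 had 15.7, 1.72 and 13.5 CPM in Cx43FL and 25.2, 6.51 and 2.69 CPM in Cx43KO, and overlapped. Its log2 fold change of 0.15 (SE 0.95) was -0.37 without Cx43FL replicate 2 and -1.16 without Cx43KO replicate 1.

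Many members were low in Cx43FL replicate 2. The ratio of this library to the mean of Cx43FL replicates 1 and 3 was below 0.5 in 12 of the 33 tested members (36.4%), against 17.1% of all tested genes, a description chosen after the counts had been seen. Its median was 0.81 over the members and 0.969 over all tested genes. The lowest ratios were those of Bmp4 (0.0304), Inhbb (0.113), Smad7 (0.118), Smad6 (0.231), Tgfbr3 (0.242) and Tgfbr2 (0.262). The summed choroid plexus markers had a ratio of 0.037. In the other direction, Inhba was 10.1 times, Acvr1c 4.05 times and Acvr1 3.4 times as high in this library as in the other Cx43FL libraries. Smad1, Smad5, Bmpr1a, Bmpr1b and Bmpr2 lay near 1. The median log2 fold change of the tested members was 0.19 without Cx43FL replicate 2.

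**Figure D4:**
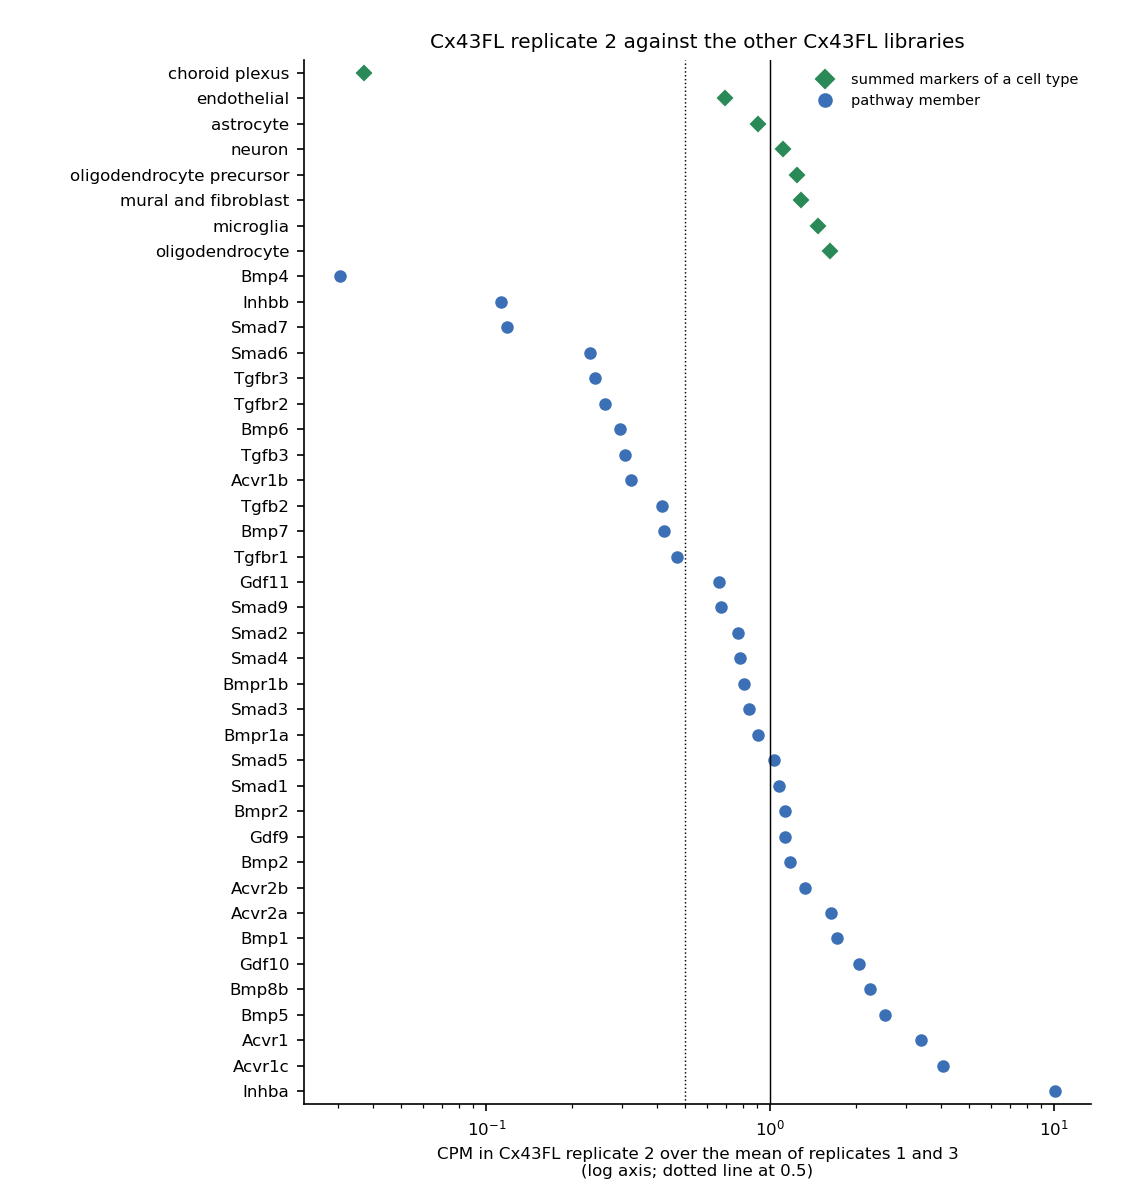
CPM in Cx43FL replicate 2 over the mean of Cx43FL replicates 1 and 3, on a log axis, for the summed markers of each cell type (diamonds) and each tested member (circles). The choroid plexus markers lie at 0.037, the other marker sums nearer to 1, and 12 members lie left of the dotted line at 0.5.

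The other genes of the pathway were read from 5 lists with 106 genes, of which 84 were tested. None was called by edgeR or by DESeq2 with its prior. At an unadjusted p below 0.05, edgeR had 11 higher and 2 lower in Cx43KO, and the libraries did not overlap in 11 higher and 2 lower, against the shares of all genes given above. The median log2 fold change was 0.30. By list it was -0.05 for the 15 tested extracellular antagonists and binding proteins, 0.86 for the 14 genes of TGF-beta latency and activation, 0.56 for the 8 further receptors, co-receptors and ligands, 0.13 for the 22 intracellular regulators and 0.21 for the 25 targets. In the latency list 13 of 14 were above 0, against 7365 of 13545 over all genes. Only Ltbp1, a latent TGF-beta binding protein, had an unadjusted p below 0.05 in this list, and only the integrin Itgb5 and the thrombospondin Thbs2 did not overlap. The 2 genes lower in every Cx43KO library were Hes1 and the BMP antagonist Chrdl1, and the 2 lower at an unadjusted p below 0.05 were Hes1 and Hey1. Ltbp1, Itgb5, Thbs2, Chrdl1, Hey1 and the Id genes are named after their values had been seen.

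Among the ubiquitin ligases that act on Smads and receptors, Smurf1 had 31, 30.8 and 29.8 CPM in Cx43FL and 54.4, 53.2 and 61.8 CPM in Cx43KO. Libraries of a genotype lay close together and the genotypes apart, with a log2 fold change of 0.89 (SE 0.34, edgeR adjusted p = 0.556) that stayed between 0.82 and 0.93 with each library left out. Nedd4l had 76.7, 83.4 and 68.4 CPM in Cx43FL and 461, 146 and 103 CPM in Cx43KO, and Wwp2 had 20.9, 18 and 26.4 CPM in Cx43FL and 60.7, 28 and 39 CPM in Cx43KO. Here too every Cx43KO library was higher, but Cx43KO replicate 1 led, and the log2 fold changes of 1.63 and 0.96 (edgeR adjusted p = 0.497 and 0.593) were 0.70 and 0.62 without it.

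Of the co-receptors outside the set, the BMP co-receptor Rgmb had 19.2, 8.49 and 11.9 CPM in Cx43FL and 80, 27.4 and 21.5 CPM in Cx43KO. Its log2 fold change of 1.70 (SE 0.59, edgeR adjusted p = 0.54) was 0.89 without Cx43KO replicate 1, the highest library. Cd109, which binds TGF-beta and limits its signal, was counted 3, 2 and 5 times in Cx43FL and 96, 31 and 69 times in Cx43KO, giving a log2 fold change of 3.79 (SE 1.31, edgeR adjusted p = 0.54) that rests on very few Cx43FL counts and was 2.91 without Cx43KO replicate 1. Cd109 and Tgfb1i1 are on the list of raised genes that the study drew from these same libraries, and are no independent evidence of a direction. Neither was called here, and DESeq2 with its prior gave no adjusted p for Cd109.

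Among the targets, Hes1, a repressor better known as a target of Notch, had 93.6, 104 and 59.4 CPM in Cx43FL and 6.46, 27.5 and 36.2 CPM in Cx43KO. Every Cx43KO library was below every Cx43FL library, and the log2 fold change was -1.87 (SE 0.56, edgeR adjusted p = 0.492, 0.0557 from DESeq2 with its prior and 0.0487 without it). Without Cx43KO replicate 1, its lowest library, it was -1.43. Tgfb1i1, an adaptor of focal adhesions induced by TGF-beta, had 6.85, 2.52 and 5.93 CPM in Cx43FL and 25, 17.8 and 14.8 CPM in Cx43KO, and a log2 fold change of 1.91 (SE 0.63, edgeR adjusted p = 0.54), which was 1.57 without Cx43FL replicate 2. These targets lay on opposite sides. The Id genes, the common readout of BMP signaling, overlapped between genotypes. Id1 had 86.7, 143 and 98.5 CPM in Cx43FL and 12.4, 91.1 and 104 CPM in Cx43KO, and the log2 fold changes of Id1, Id2, Id3 and Id4 were -0.66, -0.60, -0.43 and -0.53, with SE of 0.60, 0.35, 0.43 and 0.38.

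**Figure D5:**
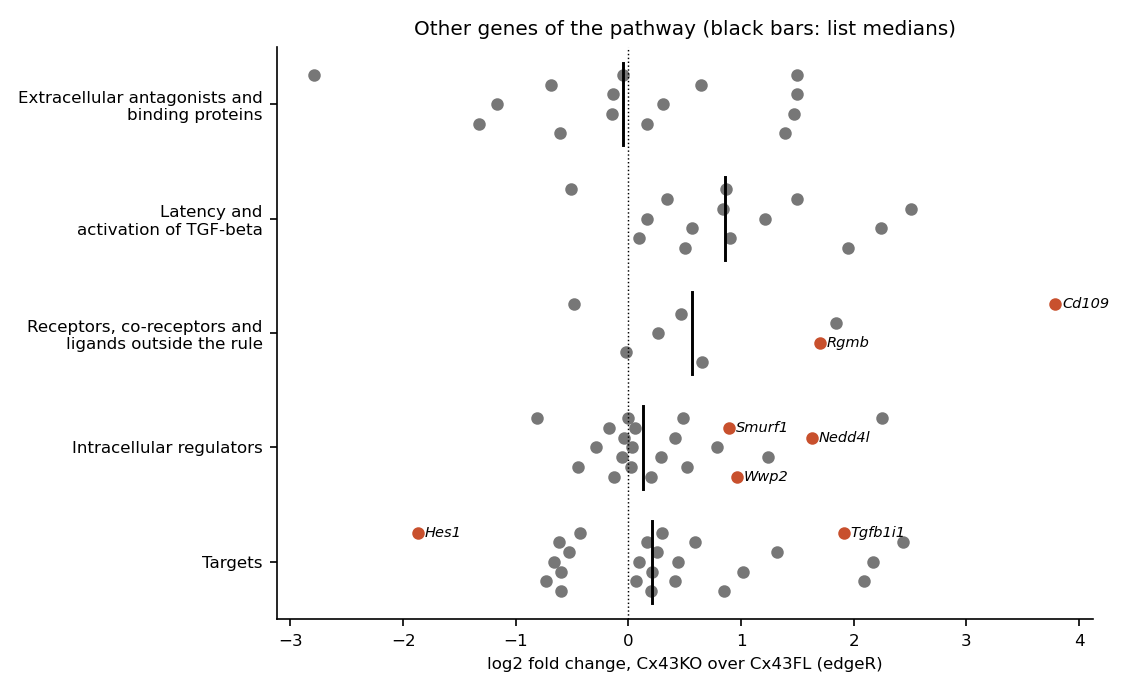
log2 fold change of Cx43KO over Cx43FL from edgeR for each tested gene of the 5 lists of other pathway genes, with a black bar at the median of each list. Coloured and named are the genes given by library, of which Hes1 lies at -1.87 and the other 6 between 0.89 and 3.79.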

How the data were processed

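Polysomal mRNAs were amplified, which gives no strand, and sequenced in 3 Cx43FL and 3 Cx43KO libraries. The authors ran Eoulsan for filtering and STAR for mapping to mm10, dropped multiply mapping reads and deposited raw counts from HTSeq 0.5.3, which the files hold per Ensembl transcript. How reads shared by transcripts were counted, and the flow cell lane of each library, are not given in the sources used here. Of 75466 transcripts, 73157 matched GENCODE M21 symbols (the others held 1.6 to 1.78% of counts), and each gene was its transcript with the highest total over the 6 libraries.

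The genotype was tested in R 4.3.3 by edgeR 4.0.16 (TMM, filterByExpr, quasi-likelihood F test, genotype alone), with a Benjamini-Hochberg adjusted p below 0.05 and a mean normalized count above 50. DESeq2 1.42.0 was an alternative. Standard errors come from the F statistic, and exact 2-sided permutation tests used log2 of CPM plus 0.5. The tests were tested on simulated data. numpy 2.4.6, pandas 2.3.3 and scipy 1.17.1 were used. Libraries of 1 genotype differed by a chi-square per degree of freedom of 32.5 or more. The biological coefficient of variation was 0.6.

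The members, lists and tests were chosen with earlier results of these data known. Given per library are the most abundant member of each role, members whose libraries did not overlap or that were called, the 5 largest rises and falls, and, of the other lists, genes that were called or had an unadjusted p below 0.05 without overlap. Others named are given as ranges or were chosen after their values were seen. Marker sums of endothelial cells were 9.82 to 15 CPM in Cx43FL and 16 to 34.9 in Cx43KO (Tek and Tie1 at 0 in every Cx43KO library), of mural cells and fibroblasts 48.5 to 76.5 and 61.1 to 152 (Kcnj8 at 0 in all), of oligodendrocytes 608 to 1023 and 642 to 2736, and of their precursors 194 to 258 and 191 to 340.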

Additional observations from a re-analysis of the deposited data

How the results depend on the processing

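The count of members called was 0 under every alternative (each library left out, no filter, size factors from DESeq2, upper-quartile scaling, a minimum of 10 counts in every library, DESeq2 with and without its prior, the replicate number as a block, transcripts added up and no minimum on the mean count), and 5 members did not overlap under each of the scalings and with transcripts added up. Over all genes, the count of 1 called became 0 with at least 10 counts in every library or transcripts added up, 113 with DESeq2 and its prior, 137 without the prior, 2 with the replicate block and 0 to 11 with a library left out, 11 being without Cx43KO replicate 1. The median log2 fold change of the members ran from 0.16 to 0.50. DESeq2 with its prior gave no adjusted p for Bmp2, Bmp8b and Cd109, where only the direction was compared. Taken by the longest transcript, levels in Cx43FL were lower for some genes, such as Smad1 (25.9 rather than 31.6 CPM per kb), Inhba (0.68 rather than 2.84) and Nedd4l (9.78 rather than 20.7). Among 26 named genes under 14 alternatives, 347 of 358 log2 fold changes kept their direction and, where there was an adjusted p, their side of the threshold. None of these genes was called in the main fit, so that staying on that side shows little. Hes1 passed with DESeq2 without prior (adjusted p = 0.0487), and 10 values in 6 genes changed sign. These were Bmp7 (-0.13 without Cx43FL replicate 2, -0.25 without Cx43KO replicate 3), Inhba (1.07 with the replicate block, 1.95 without Cx43FL replicate 2, 0.45 without Cx43KO replicate 2), Smad1 (-0.03), Smad4 (-0.03), Smad7 (-0.37 and -1.16) and Bmp5 (0.06), the last 4 with 1 library left out. With each library left out, Bmp7 ran from -0.25 to 0.45, Inhba from -0.59 to 1.95, Smad1 from -0.03 to 0.34, Smad4 from -0.03 to 0.36, Smad7 from -1.16 to 0.62 and Bmp5 from -1.55 to 0.06. Deviations of libraries sharing a replicate number correlated by 0.0114, -0.00402 and -0.0547 across genes. No correlation of libraries with different numbers was set beside these values, so that they do not settle whether libraries were paired. At this depth and spread the 95% intervals of low ligands stay wide, from -4.85 to 2.53 for Bmp2 and from -4.60 to 2.32 for Bmp8b, so that smaller differences in these were not detectable. The cause of these changes was not tested.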
